A study of Mus musculus with 18 samples.

Results

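The 26 genes described here encode the enzymes that make cholesterol from acetyl-CoA and the proteins that set their transcription and the handling of sterols. They were chosen by name, as a list of mouse symbols, out of 34937 genes counted in each library, of which 34599 could be given a symbol. All 26 were found in the files and all 26 passed the filter on low counts. The list held 8 enzymes of the mevalonate and isoprenoid steps, 11 enzymes of the squalene and sterol steps, and 7 proteins of SREBP2 control and sterol handling.

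Cholesterol synthesis starts in the cytosol and continues in the endoplasmic reticulum, where acetyl-CoA is built into mevalonate, isoprenoids, squalene, lanosterol and then cholesterol. SREBP2, the product of Srebf2, is a membrane-bound transcription factor that switches on genes of this pathway when sterols in the membrane are low. SCAP carries it to the Golgi for cleavage, and INSIG proteins hold SCAP back when sterols are plentiful. The liver is a main site of cholesterol synthesis and is where cholesterol is turned into bile acids.

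Poly-A RNA from the livers of 18 mice, 1 library per mouse, was sequenced in 6 groups of 3. Liver injury came from an intraperitoneal injection of the hepatotoxin carbon tetrachloride in oil, 0.5 µL per g of body weight, in all mice. MycER, MYC fused to the part of the estrogen receptor that binds hormone, was activated with 1 mg of tamoxifen injected intraperitoneally each day. Group 12 was taken 12 days after injury without activation of MycER and group 12ON 12 days after injury with it. Groups 1OFF, 2OFF, 3OFF and 7OFF are labelled as taken 1, 2, 3 and 7 days after injury without activation, and the design text compares each of them with 12ON. The labels do not say whether MycER had been active earlier in the OFF mice. Days after injury, earlier activation and group therefore cannot be told apart in the values below. The strain, the sex and age of the mice, the promoter that drove MycER, the hour of sampling and whether group 12 received tamoxifen or carried MycER were not given in the sources used here. Xist, the RNA of the inactive X chromosome, was at 263 to 485 counts per M counts in 1 library of each group but 1OFF. These were replicate 3 of groups 12, 3OFF and 7OFF, replicate 2 of 12ON and replicate 1 of 2OFF. In every other library it was at most 1.75, so the groups mixed high and low Xist and 1OFF did not. Mice were fed regular chow under a 12-h light/dark cycle.

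The libraries held 23.1 to 75.3 M gene counts. Of 10 hepatocyte markers 9 were matched and none was at 0 in any group. Group 12 had a summed level of these markers between 124987 and 133510 CPM, 12ON between 38653 and 48256, 3OFF between 67297 and 92465 and 7OFF between 79365 and 99742. The share of mitochondrial counts lay between 4.80% and 5.25% for group 12, between 6.42% and 7.11% for 12ON, between 5.36% and 7.18% for 3OFF and between 5.54% and 6.19% for 7OFF. In bulk liver RNA, fewer cells of a type and less RNA per cell cannot be told apart. Levels are normalised CPM, given below for replicates 1, 2 and 3 in turn. They are counts of a gene per M counts of the library, where the library total was multiplied by a TMM scaling factor. That total was the counts of the genes that passed the filter. The factor was 0.79 to 0.92 in group 12, 1.16 to 1.24 in 12ON and 1.03 to 1.16 in 1OFF and 2OFF. In 3OFF it was 0.94 to 0.98 and in 7OFF 0.82 to 0.96. A higher factor makes the level lower. Differences are log2 fold changes with their standard error and an adjusted p (edgeR's quasi-likelihood test, Benjamini-Hochberg over 17789 genes), where a gene is called at an adjusted p under 0.05.

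Of the 26 genes, 21 were lower in 12ON than in group 12 and none was higher. All 21 were still lower than group 12 in 3OFF, and 12 of them were lower in 7OFF. The 12 were Hmgcs1, Mvk, Idi1 and Fdps of the mevalonate and isoprenoid steps, Fdft1, Sqle, Lss, Cyp51, Msmo1, Hsd17b7 and Dhcr7 of the squalene and sterol steps, and Srebf2. The other 9, which were low in 3OFF and not called in 7OFF, were Pmvk, Mvd, Tm7sf2, Nsdhl, Ebp, Sc5d, Scap, Insig1 and Insig2. Acat2, Ggps1, Stard4, Mylip and Npc1 were not called in 12ON.

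Against these counts, 22.6% of all genes tested were called lower in 12ON than in group 12 and 24% higher. In 3OFF 7.95% were called lower and in 7OFF 3.31%, with 2.47% called higher in 7OFF, where none of the 26 was. The median log2 difference over the 26 genes was -1.01 in 12ON, -1.03 in 3OFF and -0.52 in 7OFF, and over all genes tested it was within 0.02 of 0 in each. All libraries of 12ON lay below all of group 12 for 19 of the genes, where 28.2% of all genes tested did so. In 3OFF that held for 21 genes against 16.3% of all genes, and in 7OFF for 14 genes against 11.5%. The 3 comparisons share the libraries of group 12, and in that group replicate 1 was the lowest of the 3 for 19 of the 26 genes.

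**Figure D1:**
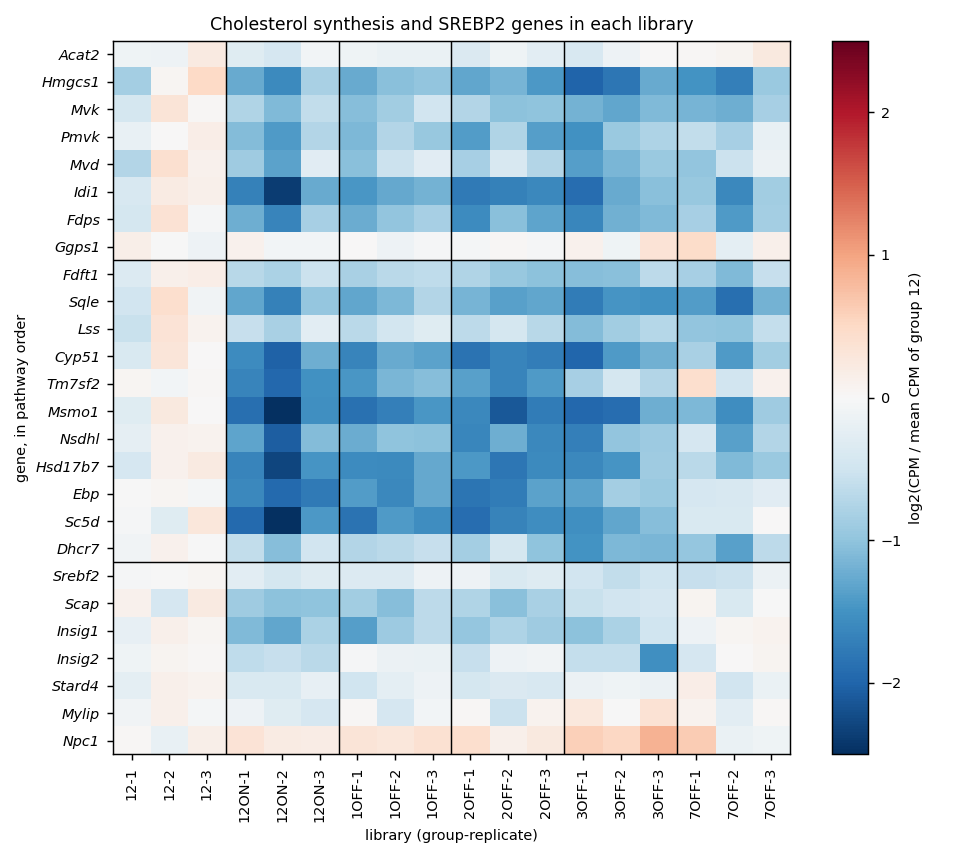
Heat map of log2(CPM divided by the mean CPM of group 12) for the 26 genes (vertical axis, pathway order, lines between the 3 roles) in the 18 libraries (horizontal axis, group and replicate). Blue is below and red above the mean of group 12, and most of the sterol enzymes are blue from 12ON to 3OFF, with a paler band in 7OFF for Tm7sf2, Ebp, Sc5d, Scap and Insig1.

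In group 12 the genes spanned a wide range of levels per length. Hmgcs1 was highest at 330.4 ± 141 CPM per kb of exons (SD, n = 3), and Sc5d, Idi1 and Insig1 followed at 148 ± 30.0, 139 ± 29.9 and 108 ± 12.6 CPM per kb, with spreads that overlapped. Ggps1 was lowest at 2.13 ± 0.205 CPM per kb, below Mylip at 4.26 ± 0.334. Hmgcs1 kept the highest and Ggps1 the lowest level per length in all 6 groups. In 7OFF, Sc5d at 126 ± 20.4 and Insig1 at 109 ± 8.84 CPM per kb did not differ from Hmgcs1 at 131 ± 38.2 beyond the spread over mice. Sqle was 15th of the 26 genes per length in group 12 and 20th in 7OFF, while Tm7sf2 moved from 16th to 11th.

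**Figure D2:**
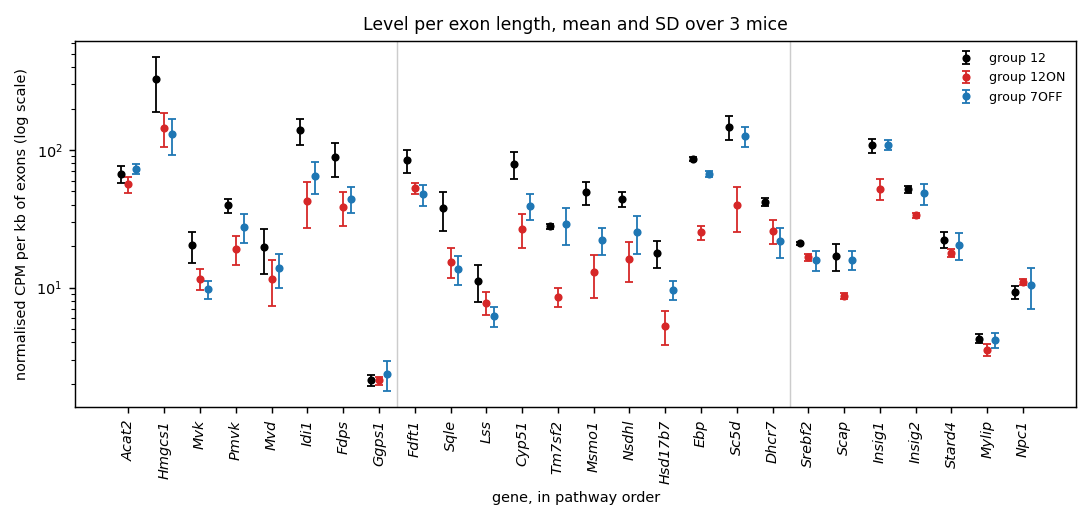
Mean level per kb of exons (vertical axis, log scale, bars are SD over 3 mice) of each gene (horizontal axis, pathway order) in groups 12 (black), 12ON (red) and 7OFF (blue). The 7OFF point of Hmgcs1 lies near that of 12ON, whereas those of Sc5d, Insig1 and Tm7sf2 lie near that of group 12.

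Promoter sequence was looked at because, of the genes called lower in 12ON and 3OFF, a set was called lower in 7OFF and a set was not. The 2 sets are parted by the threshold on adjusted p alone. Nsdhl and Ebp were in the set not called, yet all their 7OFF libraries lay below group 12. RefSeq windows (GRCm38.p6, 250 bases before to 50 after each start) were matched for 21 of the 26 genes. Fdps, Fdft1, Sqle, Stard4 and Npc1 had no window, so the motif counts leave them out. The bases outside annotated exons are shown for 3 genes that were low in 7OFF, Hmgcs1 (chr13:119690101-119690350, plus strand), Lss (chr10:76531355-76531587, plus strand) and Srebf2 (chr15:82147019-82147265, plus strand), and for 2 that rose between 3OFF and 7OFF, Ebp (chrX:8193513-8193762, minus strand) and Sc5d (chr9:42264301-42264550, minus strand). Capitals mark 3 motifs read on both strands: TCACNCCAC, a form of the sterol regulatory element that SREBP proteins bind, CCAAT, the box bound by NF-Y, and CACGTG, the E-box bound by MYC and other factors. None of the 3 contains another.
Hmgcs1: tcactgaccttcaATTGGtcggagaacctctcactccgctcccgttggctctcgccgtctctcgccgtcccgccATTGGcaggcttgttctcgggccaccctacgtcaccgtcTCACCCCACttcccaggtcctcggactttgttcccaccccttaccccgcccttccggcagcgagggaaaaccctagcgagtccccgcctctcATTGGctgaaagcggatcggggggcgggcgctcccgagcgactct
Lss: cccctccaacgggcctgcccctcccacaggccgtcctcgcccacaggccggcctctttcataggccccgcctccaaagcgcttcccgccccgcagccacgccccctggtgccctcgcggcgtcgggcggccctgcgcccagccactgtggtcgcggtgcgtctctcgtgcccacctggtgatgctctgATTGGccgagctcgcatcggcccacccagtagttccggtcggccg
Srebf2: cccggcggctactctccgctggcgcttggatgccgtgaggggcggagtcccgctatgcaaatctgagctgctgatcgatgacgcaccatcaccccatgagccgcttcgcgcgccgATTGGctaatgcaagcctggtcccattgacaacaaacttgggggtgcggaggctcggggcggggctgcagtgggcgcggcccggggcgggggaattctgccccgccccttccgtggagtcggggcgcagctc
Ebp: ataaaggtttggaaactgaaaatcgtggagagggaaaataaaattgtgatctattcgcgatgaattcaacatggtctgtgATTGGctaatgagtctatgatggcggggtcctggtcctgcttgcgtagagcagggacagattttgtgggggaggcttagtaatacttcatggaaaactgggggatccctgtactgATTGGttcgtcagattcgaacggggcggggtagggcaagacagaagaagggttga
Sc5d: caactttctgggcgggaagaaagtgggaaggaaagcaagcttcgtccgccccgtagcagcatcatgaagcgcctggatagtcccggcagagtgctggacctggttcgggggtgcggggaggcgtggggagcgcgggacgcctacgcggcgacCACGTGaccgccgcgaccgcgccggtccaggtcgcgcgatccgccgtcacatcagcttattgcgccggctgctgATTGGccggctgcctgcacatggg

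Over the whole windows, CCAAT, or ATTGG where it lies on the other strand, was present for 19 of the 21 matched genes, against 41.1% of all 27025 genes with a window and 37.4% of all 32851 windows. CACGTG was present for 5 of 21, Hsd17b7, Sc5d, Dhcr7, Scap and Insig1, against 8.09% of all genes and 7.15% of windows. TCACNCCAC was present for 1 of 21, Hmgcs1, against 1.44% of all genes and 1.24% of windows. Both sets held CCAAT and CACGTG, and the motif counts describe these windows alone.

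The early steps make mevalonate and turn it into isoprenoid units. Gene positions here and below are those of the deposited annotation (GRCm38). Hmgcs1 (ENSMUSG00000093930, chromosome 13, 119690462 to 119708086) encodes the cytosolic HMG-CoA synthase, which condenses acetoacetyl-CoA with acetyl-CoA. Its level was 595, 1106 and 1502 CPM in group 12, 447, 356 and 610.4 CPM in 12ON, 268, 307 and 448 CPM in 3OFF and 379, 327 and 562 CPM in 7OFF. Replicate 3 of 12ON lay just above the lowest library of group 12, and all libraries of 3OFF and 7OFF lay below group 12. In 1OFF and 2OFF the level was 397 to 543 CPM. Hmgcs1 was lower than in group 12 by 2.27-fold in 12ON (-1.18 ± 0.30, adjusted p = 0.00446 in edgeR), 3.13-fold in 3OFF (adjusted p = 0.00216) and 2.53-fold in 7OFF (adjusted p = 0.0197). Its 7OFF level was not called different from that of 12ON, with a 95% interval of the log2 difference of -0.79 to 0.47.

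Mvk (ENSMUSG00000041939, chromosome 5, 114444269 to 114460591), the mevalonate kinase, had 40.0, 67.6 and 55.3 CPM in group 12, 32.1, 25.2 and 35.7 CPM in 12ON, 24.0, 21.9 and 25.4 CPM in 3OFF and 24.4, 23.2 and 30.5 CPM in 7OFF. No library of 12ON, 3OFF or 7OFF reached the lowest of group 12. It was 2.29-fold lower in 3OFF (adjusted p = 0.000862) and 2.09-fold lower in 7OFF (adjusted p = 0.00767), and against 12ON its log2 difference in 7OFF was -0.25 ± 0.19, not called. Pmvk and Mvd, which carry out the next steps on mevalonate, were lower in 12ON (-1.05 ± 0.23 and -0.77 ± 0.30) and in 3OFF (-1.04 ± 0.23 and -1.15 ± 0.30). In 7OFF Pmvk lay at 44.1, 37.9 and 59.8 CPM, overlapping the 59.6, 68.0 and 75.5 CPM of group 12, and its log2 difference had an interval of -1.01 to -0.03 with an adjusted p = 0.199 in edgeR. Mvd lay at 17.6, 23.9 and 31.3 CPM with an interval of -1.16 to 0.12.

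Idi1, the isomerase that makes dimethylallyl diphosphate, had 367, 561 and 533 CPM in group 12, 150.3, 94.2 and 204 CPM in 12ON, 130.4, 202 and 236 CPM in 3OFF and 254, 159 and 266 CPM in 7OFF. It had the largest fold of the mevalonate and isoprenoid genes in 12ON, 3.26-fold lower (adjusted p = 0.000141), and was 2.57-fold lower in 3OFF (adjusted p = 0.00369) and 2.15-fold lower in 7OFF (adjusted p = 0.0282). Fdps, the farnesyl diphosphate synthase, had 274, 481 and 365 CPM in group 12 and 211, 140.4 and 207 CPM in 7OFF, and was lower there by 2.01-fold (adjusted p = 0.0265). Of the exon bases of Fdps, 26.7% overlap Gm43738, a gene whose counts were lower too (-1.20 ± 0.24 in 12ON), so reads of the 2 genes cannot be told apart there. Acat2, the cytosolic acetyl-CoA acetyltransferase that supplies acetoacetyl-CoA and has a close copy in mouse, stayed within 127 to 204 CPM in all libraries and was not called against group 12. Ggps1, which makes geranylgeranyl diphosphate for protein prenylation, stayed within 4.26 to 6.95 CPM, and its log2 difference in 12ON had an interval of -0.34 to 0.34. In sum 6 of these 8 genes were lower in 12ON and in 3OFF, and 4 of 8 in 7OFF.

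All 11 genes of the squalene and sterol steps were lower in 12ON and in 3OFF, and 7 of 11 in 7OFF. Sqle (ENSMUSG00000022351, chromosome 15, 59315077 to 59331192) encodes squalene epoxidase, a rate-limiting enzyme that adds the first oxygen. Its level was 150.3, 279 and 197 CPM in group 12, 85.0, 65.1 and 107 CPM in 12ON, 61.8, 74.8 and 73.4 CPM in 3OFF and 79.3, 56.6 and 91.5 CPM in 7OFF. The 3 groups all lay below group 12 and overlapped each other. Sqle was 2.44-fold lower in 12ON (-1.28 ± 0.23, adjusted p = 0.000356), 2.98-fold lower in 3OFF (-1.58 ± 0.23, adjusted p = 0.000517) and 2.76-fold lower in 7OFF (-1.46 ± 0.23, adjusted p = 0.00484 in edgeR). It had the largest fold of the 26 genes in 7OFF. Against 12ON its log2 difference in 7OFF had an interval of -0.67 to 0.31.

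Fdft1, the squalene synthase, had 189.5, 262 and 273 CPM in group 12, 115, 116 and 153 CPM in 3OFF and 135, 112 and 161 CPM in 7OFF, with no overlap. It was 1.89-fold lower in 3OFF (adjusted p = 0.00149) and 1.77-fold lower in 7OFF (adjusted p = 0.0098). Of its exon bases 26.8% overlap those of Ctsb, a cathepsin with 896 to 1487 CPM that was not called in 12ON (0.03 ± 0.12), in 3OFF (0.30 ± 0.12) or in 7OFF (-0.16 ± 0.12), and reads in the shared bases counted for both genes. Lss, which closes the ring to lanosterol, had 82.1, 153 and 128 CPM in group 12 and 81.2, 69.3 and 101 CPM in 12ON, which overlapped, and 57.1, 66.2 and 74.0 CPM in 3OFF and 60.8, 60.3 and 80.3 CPM in 7OFF, which did not. Its log2 difference from group 12 was -0.53 ± 0.20 in 12ON, -0.88 ± 0.20 in 3OFF and -0.85 ± 0.20 in 7OFF. Cyp51, the lanosterol demethylase, was 2.96-fold lower in 12ON, 2.83-fold lower in 3OFF and 2.01-fold lower in 7OFF (adjusted p = 0.0225 in edgeR), from 269.8, 429.8 and 351 CPM in group 12 to 201, 130.3 and 191 CPM in 7OFF.

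Msmo1, Nsdhl and Hsd17b7 together remove the methyl groups at carbon C-4 of the sterol. Msmo1, the methyl oxidase, had the largest fold of the 26 genes in 12ON, 3.82-fold lower (-1.93 ± 0.27, adjusted p = 4.28e-05), with 244, 360.0 and 305 CPM in group 12 and 82.2, 50.4 and 105 CPM in 12ON. In 7OFF its 139.7, 104 and 163 CPM were higher than in 12ON (0.77 ± 0.26, adjusted p = 0.0261) and lower than in group 12 (-1.16 ± 0.27, adjusted p = 0.0205), so this step lay between both. Hsd17b7, the 3-keto reductase, was likewise higher in 7OFF than in 12ON (0.87 ± 0.23, adjusted p = 0.00587) and lower than in group 12 (-0.90 ± 0.23, adjusted p = 0.0324). Nsdhl, the decarboxylating dehydrogenase, lay at 93.3, 48.6 and 75.6 CPM in 7OFF and 107, 136 and 132 CPM in group 12. Its libraries did not overlap, and the log2 difference of -0.79 ± 0.26 (interval -1.34 to -0.23) missed the threshold with an adjusted p = 0.0888 in edgeR.

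Tm7sf2, Ebp and Sc5d were higher in 7OFF than in 12ON and were not called against group 12. Tm7sf2 (ENSMUSG00000024799, chromosome 19, 6062821 to 6068373) encodes a sterol C-14 reductase and Ebp (ENSMUSG00000031168, chromosome X, 8185329 to 8193512) the sterol isomerase that shifts the double bond. Tm7sf2 had 99.7, 92.0 and 99.2 CPM in group 12, 31.1, 24.7 and 34.1 CPM in 12ON, 54.5, 71.2 and 58.5 CPM in 3OFF and 129.6, 69.3 and 105 CPM in 7OFF. All libraries of 3OFF lay between those of 12ON and group 12, while 7OFF spanned the range of group 12. Tm7sf2 was 3.23-fold lower in 12ON (adjusted p = 6.76e-06) and 1.58-fold lower in 3OFF (adjusted p = 0.0242), and in 7OFF its log2 difference from group 12 was 0.06 ± 0.19 with an interval of -0.33 to 0.46. Its exons share 15.3% of their bases with Vps51, which had 21.8 to 31.5 CPM over all libraries, and reads in the shared bases counted for both genes. Vps51 was called higher than in group 12 in 12ON (0.37 ± 0.07) and 3OFF (0.26 ± 0.07) and was not called in 7OFF (0.16 ± 0.07). Its mean of 29.3 CPM in 12ON was near the level of Tm7sf2 in that group.

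Ebp had 198, 205 and 193 CPM in group 12, 64.8, 51.6 and 58.0 CPM in 12ON, 78.1, 109.5 and 105 CPM in 3OFF and 149, 149.9 and 162 CPM in 7OFF. No 2 of these groups overlapped, and from highest to lowest they stood as group 12, 7OFF, 3OFF and 12ON. Ebp was 3.42-fold lower in 12ON (-1.77 ± 0.15, adjusted p = 6.56e-07), the smallest adjusted p of the 26 genes. In 7OFF it was higher than in 12ON (1.40 ± 0.15, adjusted p = 5.97e-06), and its log2 difference from group 12, -0.37 ± 0.14 with an interval of -0.68 to -0.06, was not called (adjusted p = 0.144 in edgeR).

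Sc5d (ENSMUSG00000032018, chromosome 9, 42254177 to 42264300) encodes the desaturase that comes just before the final reductases. It had 339, 278 and 417 CPM in group 12, 89.5, 60.7 and 128 CPM in 12ON, 119, 140.0 and 166 CPM in 3OFF and 265, 265 and 347 CPM in 7OFF. The 7OFF libraries lay above all of 12ON and 3OFF and overlapped group 12. Sc5d was 3.72-fold lower in 12ON (adjusted p = 1.59e-05) and 2.44-fold lower in 3OFF (adjusted p = 0.00188). In 7OFF it was 3.16-fold higher than in 12ON (adjusted p = 5.44e-05), with a log2 difference from group 12 of -0.24 ± 0.23 and an interval of -0.72 to 0.25.

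Dhcr7 (ENSMUSG00000058454, chromosome 7, 143823145 to 143848410), the 7-dehydrocholesterol reductase of the last steps, followed another course. It had 149.9, 171 and 158 CPM in group 12, 104, 76.4 and 114 CPM in 12ON, 56.8, 73.8 and 72.5 CPM in 3OFF and 81.7, 62.3 and 102 CPM in 7OFF. All libraries of 3OFF lay below those of 12ON, which lay below group 12. Dhcr7 was the only gene of the 26 called lower in 3OFF than in 12ON (-0.54 ± 0.19, adjusted p = 0.0375 in edgeR), where 17% of all genes tested were called lower. That call was lost without replicate 1 or 3 of 12ON or any 1 library of 3OFF, with adjusted p up to 0.135. Against group 12 it was 2.36-fold lower in 3OFF (adjusted p = 0.000605) and 1.95-fold lower in 7OFF (adjusted p = 0.0103).

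**Figure D3:**
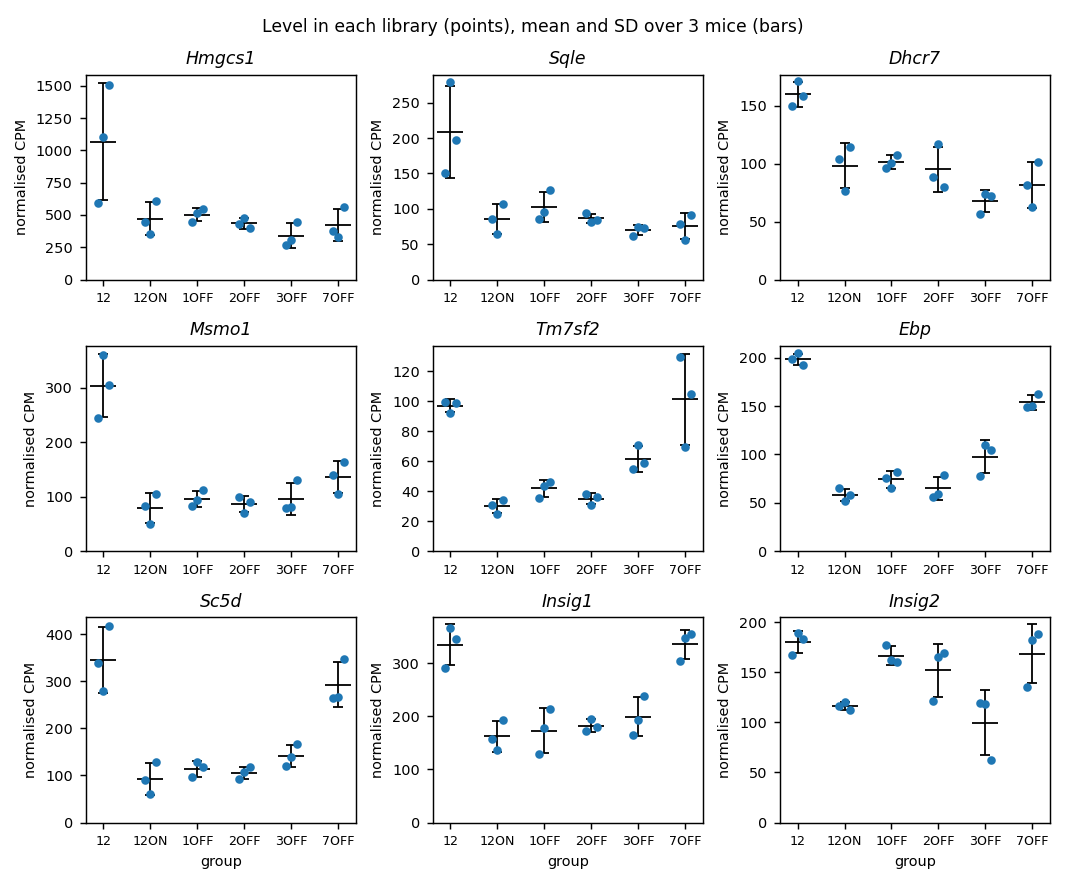
Normalised CPM (vertical axes, from 0) of 9 of the genes in the 6 groups (horizontal axes). Points are libraries and bars the mean and SD over 3 mice. All 7OFF libraries of Hmgcs1, Sqle, Dhcr7, Msmo1 and Ebp lie below group 12, whereas those of Tm7sf2, Sc5d, Insig1 and Insig2 overlap its range.

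Ratios of genes within a library, which do not depend on library scaling, set these courses side by side for 3 pairs chosen after their values had been seen. In group 12 the log2 ratio of Ebp to Sqle was between -0.45 and 0.40, in 12ON between -0.88 and -0.34, in 3OFF between 0.34 and 0.55 and in 7OFF between 0.83 and 1.41. The ratio of Ebp to Sqle in 7OFF was thus above that of every library of the other 3 groups. For Tm7sf2 to Dhcr7 it was between -0.90 and -0.59 in group 12, between -1.74 and -1.63 in 12ON and between 0.04 and 0.67 in 7OFF. Sc5d to Hmgcs1 went from -2.55 to -2.26 in 12ON to -0.70 to -0.30 in 7OFF, where group 12 had -1.99 to -0.81.

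Among the genes of SREBP2 control, 4 of 7 were lower in 12ON and in 3OFF, and 1, Srebf2, in 7OFF. Srebf2 (ENSMUSG00000022463, chromosome 15, 82147266 to 82205376) had 102, 104 and 108 CPM in group 12, 86.9, 77.0 and 83.9 CPM in 12ON, 74.8, 68.6 and 74.7 CPM in 3OFF and 70.5, 72.3 and 94.2 CPM in 7OFF. All libraries of 12ON, 3OFF and 7OFF lay below group 12, and replicate 3 of 7OFF lay above 12ON and 3OFF. The decreases were small, 1.27-fold in 12ON (adjusted p = 0.0177), 1.44-fold in 3OFF (adjusted p = 0.00461) and 1.33-fold in 7OFF (adjusted p = 0.0415 in edgeR). The scaling factors, which act on all genes of a library alike, were 0.79 to 0.92 in group 12 and 1.16 to 1.24 in 12ON. In 12ON the decreases of Srebf2 and Lss were of similar size to the difference in these factors. The next smallest called decreases in 12ON were those of Insig2 (-0.63), Fdft1 (-0.67), Dhcr7 (-0.70), Mvd (-0.77) and Mvk (-0.81), and the factors bear on them too. No fit was run without such factors, so these 12ON calls depend on the scaling. The 7OFF call of Srebf2 was lost without any 1 of the libraries of group 12 and without replicate 1 or 2 of 7OFF, with adjusted p up to 0.15.

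Scap, the escort of SREBP2, had 137, 95.2 and 148 CPM in group 12, 68.4, 62.0 and 63.3 CPM in 12ON, 85.8, 91.2 and 94.7 CPM in 3OFF and 133, 97.5 and 126 CPM in 7OFF. It was 1.97-fold lower in 12ON (adjusted p = 0.000132), and in 7OFF it overlapped group 12, with an interval of -0.43 to 0.23. Its call in 3OFF (-0.49 ± 0.16, adjusted p = 0.0417) was lost without replicate 1 or 3 of group 12 or any 1 library of 3OFF, with adjusted p up to 0.166. The 3OFF libraries of Scap all lay below group 12 and above 12ON.

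Insig1 (ENSMUSG00000045294, chromosome 5, 28071363 to 28078662), which retains SCAP and is itself known as an SREBP target, had 292, 367 and 346 CPM in group 12, 157, 136 and 194 CPM in 12ON, 165, 193 and 238 CPM in 3OFF and 305, 348 and 356 CPM in 7OFF. The 7OFF libraries lay within the range of group 12 and above all of 3OFF. Insig1 was 2.06-fold lower in 12ON (adjusted p = 0.000256), and in 7OFF its log2 difference from group 12 was 0.00 ± 0.18 with an interval of -0.38 to 0.39. It was 2.07-fold higher in 7OFF than in 12ON (adjusted p = 0.000282). Insig2, the second INSIG, had 168, 189 and 183 CPM in group 12, 117, 121 and 112 CPM in 12ON, 177, 162 and 161 CPM in 1OFF, 119, 119 and 62.1 CPM in 3OFF and 135, 182 and 189 CPM in 7OFF. Its 12ON and 3OFF libraries lay below group 12, with replicate 3 of 3OFF the lowest of all, while 1OFF and 7OFF overlapped group 12. Insig2 was 1.55-fold lower in 12ON (adjusted p = 0.0178), a call lost without replicate 3 of 12ON (adjusted p = 0.0545), and 1.80-fold lower in 3OFF (adjusted p = 0.0101).

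Npc1, which exports cholesterol from lysosomes, was the only gene of the 26 called higher than group 12 in any comparison with that group. It had 101, 87.2 and 109.9 CPM in group 12, 151, 142 and 183 CPM in 3OFF and 155, 88.6 and 92.2 CPM in 7OFF. All 3OFF libraries lay above group 12, and in 7OFF replicate 1 was high while the other two lay within the range of group 12. The 3OFF difference was 0.67 ± 0.17 (adjusted p = 0.0159 in edgeR), where 9.47% of all genes tested were called higher, and it was lost without replicate 2 of group 12 or replicate 3 of 3OFF (adjusted p up to 0.0678). Stard4, a cytosolic sterol carrier, was at 105 to 136 CPM in group 12 and 88.9 to 139 CPM in 7OFF, with an interval of -0.44 to 0.16, and was called lower in 2OFF alone (-0.40 ± 0.14, adjusted p = 0.0393), a call lost without replicate 2 or 3 of group 12 or any 1 library of 2OFF, with adjusted p up to 0.129. Mylip, the ubiquitin ligase IDOL that targets lipoprotein receptors, was at 12.4 to 14.2 CPM in group 12 and 10.8 to 13.9 CPM in 7OFF. It was called higher in 3OFF than in 12ON (0.48 ± 0.17, adjusted p = 0.0361), a call lost without replicate 2 or 3 of 12ON or replicate 1 or 3 of 3OFF, with adjusted p up to 0.13.

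**Figure D4:**
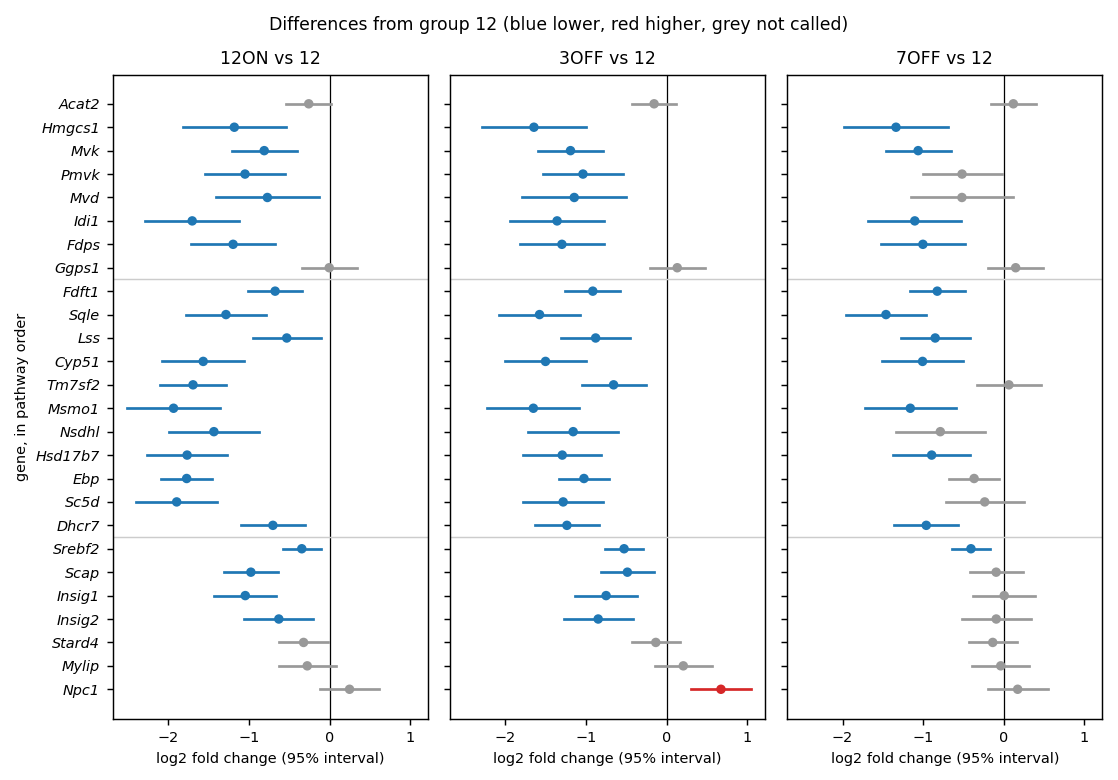
Log2 fold change against group 12 (horizontal axes, points with 95% intervals) of each gene (vertical axis, pathway order) in 12ON, 3OFF and 7OFF. Blue is called lower, red higher and grey not called, and the blue points number 21, 21 and 12 from left to right.

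The design text names the comparison of each OFF group with 12ON. In 1OFF and 2OFF none of the 26 genes was called in either direction by edgeR, where at most 0.00562% of all genes tested were. That background depended on the setting. In 1OFF edgeR called 189 of 17131 genes in a fit of the 2 groups alone, with 1 of the 26 among them (Insig2). In 2OFF it called 1505 of 18150 genes without replicate 2 of 2OFF and 439 of 17789 with a replicate block, with none of the 26 in either. DESeq2 called 514 of 15981 genes in 1OFF and 923 of 15981 in 2OFF, again with none of the 26. At an unadjusted p under 0.05, 3 genes were higher in 1OFF (Tm7sf2, Ebp and Insig2) and 0 in 2OFF. Relative to group 12, 17 genes were lower in 1OFF and 19 in 2OFF, against 16.3% and 17% of all genes called lower, and none was higher against 17.1% and 18.1%. The 1OFF calls of Hmgcs1 and Dhcr7 were lost without replicate 3 of group 12 and without replicate 1 of 1OFF respectively, and the 2OFF call of Lss without replicate 2 or 3 of group 12 or replicate 1 or 3 of 2OFF (adjusted p up to 0.167). In all, 10 genes were lower than group 12 in 12ON and in all 4 OFF groups. In 3OFF 4 of the 26 genes were higher than in 12ON, a share near the 15.3% of all genes. They were Tm7sf2 (1.03 ± 0.19, adjusted p = 0.000913), Ebp (0.75 ± 0.15, adjusted p = 0.00143), Scap and Mylip. The count was 2 without replicate 2 of 12ON or replicate 3 of 3OFF. In 7OFF 9 genes were higher than in 12ON and none was lower, against 21.4% and 22.7% of all genes tested. They were Acat2, Tm7sf2, Msmo1, Hsd17b7, Ebp, Sc5d, Scap, Insig1 and Insig2, and 6 of them were called whichever library was left out. Acat2 was lost without replicate 1 or 2 of 12ON or replicate 3 of 7OFF, Msmo1 without replicate 1 or 2 of 12ON or replicate 1 or 3 of 7OFF, and Insig2 without any 1 library but replicate 1 of 7OFF, with adjusted p up to 0.148. The count in 7OFF ranged from 6 to 12 when 1 library was left out.

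Between neighbouring OFF groups, Tm7sf2 and Ebp were higher in 3OFF than in 2OFF (0.81 ± 0.19 and 0.59 ± 0.14), where 2.84% of all genes tested were called higher, and none of the 26 was lower against 3.95%. From 3OFF to 7OFF 5 genes were higher, Tm7sf2, Ebp, Sc5d, Insig1 and Insig2, against 3.02% of all genes, and none was lower against 5.04%. Sc5d had the largest of these differences, 1.05 ± 0.23 (adjusted p = 0.0128 in edgeR). Sqle and Lss were not called between 3OFF and 7OFF, with intervals of -0.37 to 0.60 and -0.39 to 0.45. Leaving out replicate 1 of 3OFF, which was the lowest of its group for 20 of the 26 genes, left 1 gene called from 3OFF to 7OFF, and leaving out replicate 3 of 3OFF, or replicate 2 or 3 of 7OFF, left 3. The comparison of 7OFF with 3OFF shares no library with that of 12ON with group 12. Over the 26 genes their log2 differences had a Pearson r of -0.69 and a Spearman rho of -0.65, and over all 17789 genes -0.47 and -0.39, across genes, which are not independent replicates.

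The 12 calls in 7OFF depended on single libraries more than those in 12ON or 3OFF. Mvk, Fdft1, Sqle and Dhcr7 were called lower than group 12 whichever library was left out. The count was 5 without replicate 2 or 3 of group 12 or replicate 1 of 7OFF, 4 without replicate 2 of 7OFF, and 11 without replicate 1 of group 12 or replicate 3 of 7OFF. Replicate 2 of 7OFF was the lowest of its group for 19 of the 26 genes. Of the 21 calls in 12ON 17 held whichever library was left out. Mvd and Lss were lost without replicate 2 or 3 of group 12 or replicate 1 or 2 of 12ON (adjusted p up to 0.21), Srebf2 without replicate 3 of group 12 or replicate 2 of 12ON (up to 0.0796), and Insig2 as given above. Of the 22 calls in 3OFF 17 held. Besides Scap and Npc1, Mvd was lost without replicate 2 of group 12 or replicate 1 of 3OFF (adjusted p up to 0.0827), Tm7sf2 without replicate 1 or 3 of group 12 or replicate 1 or 3 of 3OFF (up to 0.0996), and Insig1 without replicate 1 of 3OFF (0.0559).

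Cell type markers were read in the same comparisons, beside the 22.6% of all genes called lower and 24% higher in 12ON, 7.95% lower in 3OFF and 3.31% lower in 7OFF. Of 9 hepatocyte markers 8 were lower in 12ON than in group 12, 4 in 3OFF and 0 in 7OFF (edgeR), where 3 were lower at an unadjusted p under 0.05 and their median log2 difference was -0.16. All 8 sinusoidal endothelial markers were lower in 12ON and 0 in 7OFF (4 at an unadjusted p under 0.05), and 7 of 8 cholangiocyte markers were higher in 12ON, from a summed 46.4 to 111 CPM in group 12 to 208 to 218 CPM. Of 8 Kupffer cell and macrophage markers 5 were lower than in group 12 in 12ON, 0 in 3OFF (1 at an unadjusted p under 0.05) and 6 in 7OFF. Their summed level was 1413 to 1849 CPM in group 12, 737 to 1160 CPM in 12ON, 1101 to 1528 CPM in 3OFF and 681 to 734 CPM in 7OFF. Of 8 stellate cell and myofibroblast markers 4 were higher in 12ON, and of 10 lymphocyte and neutrophil markers 3 were lower in 12ON, a share near that of all genes, and 1 in 7OFF. The part of the marker differences in the results was not tested. With the mitochondrial share as a covariate the counts of genes lower than group 12 became 13 in 12ON, 9 in 3OFF and 5 in 7OFF, where Hmgcs1, Mvk, Fdft1, Sqle and Dhcr7 were called. The shares of 12ON, 3OFF and 7OFF all lay above those of group 12, so the share and the group cannot be told apart in any of the 3.

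Other genes of the pathway were taken as lists by function, and their counts stand beside the share of all genes called: 22.6% lower and 24% higher in 12ON, 7.95% and 9.47% in 3OFF, and 3.31% and 2.47% in 7OFF. Of 14 tested genes of SREBP processing and sterol-regulated degradation, 6 were lower and 2 higher in 12ON, 4 lower and 2 higher in 3OFF, and none was called in 7OFF by edgeR (1 in each direction at an unadjusted p under 0.05). Mbtps2, the site-2 protease that releases SREBP, was 1 of the 2 higher in 12ON (0.51 ± 0.08). The 6 lower genes are not named here, and the lowest log2 difference of the list in 12ON was -0.84. Sec24d, a coat protein of the vesicles that leave the endoplasmic reticulum, was lower in 3OFF (-0.77 ± 0.21). Of 14 other genes known as SREBP targets, 7 were lower and none higher in 12ON, 4 lower and 1 higher in 3OFF, and 3 lower in 7OFF. Fads1, a fatty acid desaturase, had a log2 difference of -1.90 ± 0.30 in 12ON, and Srebf1, which encodes the relative of SREBP2 that acts more on fatty acid genes, -0.94 ± 0.19. Rdh11, a retinol dehydrogenase, was lower in 12ON, 3OFF and 7OFF (-1.15 ± 0.18, -1.27 ± 0.18 and -0.70 ± 0.18), and Mmab and Tmem97 were lower in 7OFF (-0.57 ± 0.13 and -0.54 ± 0.14).

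Of 13 genes that use isoprenoids, 1 was lower and 5 were higher in 12ON, 1 in each direction in 3OFF, near the share of all genes, and 1 was higher in 7OFF. Pdss1 and Coq2, which build ubiquinone, were higher in 12ON (1.45 ± 0.15 and 0.46 ± 0.07). Dhdds, which makes dolichol, was lower in 3OFF (-0.74 ± 0.20), and Rabggtb, a subunit of the Rab prenyltransferase, was higher in 3OFF and 7OFF (0.32 ± 0.09 and 0.40 ± 0.09). Of 20 genes of sterol storage, movement and export, 10 were lower and 1 higher in 12ON, 1 in each direction in 3OFF, below the share of all genes, and 1 lower in 7OFF, near that share. Abca1, the cholesterol exporter, and Nr1h3, which encodes the oxysterol receptor LXR alpha, were lower in 12ON (-0.72 ± 0.09 and -0.51 ± 0.09), and Gramd1b, a sterol carrier at membrane contacts, was higher (1.20 ± 0.23). Soat1, which esterifies cholesterol, was the gene lower in 7OFF (-0.78 ± 0.16). The part of the macrophage markers in that difference, 6 of 8 of which were lower in 7OFF, was not tested.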

How the data were processed

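Livers of 18 mice, 3 per group by the design text, gave poly-A libraries read as 50 nt single ends. Per the submitters' processing notes, Trim Galore trimmed the reads and TopHat2 placed them on mm10 (versions not given). The deposited values are raw counts per gene, and per the file headers featureCounts 1.5.0-p1 made them from the exons in Ensembl 82 (GRCm38). The headers give a minimum overlap of 10 bases and counting of a read for every gene it overlaps, without strand or reads aligned to several places. Overlapping and antisense genes therefore share counts.

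The libraries held 23.1 to 75.3 M counts, and chi-square per gene between replicates was 33.9 to 310, so none was a copy. Counts were fitted in edgeR 4.0.16 (R 4.3.3) with TMM scaling, filterByExpr at a minimum count of 10 (17789 genes), 1 mean per group over all 18 libraries, leaving 12 residual degrees of freedom (biological coefficient of variation 0.202). The 11 comparisons used two-sided quasi-likelihood F tests, adjusted after Benjamini-Hochberg across all genes and called at 0.05. A standard error is the size of a log2 fold change over the square root of its F, and intervals are 95%. The script was tested on simulated data.

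The 26 genes and the other lists were chosen with earlier results of these data known. All 26 are named. Of each other list at most 3 called genes per direction with the smallest p in 12ON, 3OFF and 7OFF against group 12 could be named, and Ctsb, Vps51 and Gm43738 were named as genes overlapping a member. Marchf6 and Tf had no match. Some genes that the rule names are left out here. Alternatives were other scalings and filters, DESeq2 1.42.0, a block for the replicate number, fits with just the 2 groups compared, terms for Xist and the mitochondrial share, libraries with low Xist, and leaving out each library.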

Additional observations from a re-analysis of the deposited data

Results flagged for a closer look

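A difference between OFF groups was found by the test of the difference itself for 5 genes (edgeR's quasi-likelihood test, Benjamini-Hochberg over 17789 genes, n = 3 per group). From 2OFF to 3OFF the log2 level of Tm7sf2 was higher by 0.81 (adjusted p = 0.025) and that of Ebp by 0.59 (adjusted p = 0.0299). From 3OFF to 7OFF Sc5d was higher by 1.05 (adjusted p = 0.0128), Insig1 by 0.76 (adjusted p = 0.0192), Insig2 by 0.76 (adjusted p = 0.0326), Tm7sf2 by 0.72 (adjusted p = 0.0287) and Ebp by 0.66 (adjusted p = 0.0129). Each of the 7 calls was lost without at least 1 single library, with adjusted p up to 0.148 for Ebp from 2OFF to 3OFF and up to 0.114 for Tm7sf2 from 3OFF to 7OFF.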

How the results depend on the processing

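No value changed direction against a call under any alternative. With the mitochondrial share as a covariate, genes lower than group 12 numbered 13 in 12ON, 8 in 1OFF, 9 in 2OFF, 9 in 3OFF and 5 in 7OFF, 0 were higher in 3OFF than in group 12, and 1 was higher in 7OFF than in 3OFF. Fits of 2 groups alone called 1 gene higher in 1OFF than in 12ON (Insig2), 1 higher in 1OFF than in group 12 (Npc1), 2 lower in 7OFF than in group 12 (Sqle and Msmo1), 0 higher in 3OFF than in 2OFF and 1 higher in 7OFF than in 3OFF. With low-Xist libraries alone, 1 gene was higher in 3OFF than in 12ON, 1 lower in 7OFF than in 12ON (Dhcr7), 0 higher in 3OFF and 7 lower in 7OFF than in group 12, 0 higher in 3OFF than in 2OFF and 2 higher in 7OFF than in 3OFF. DESeq2 called 1 gene lower in 3OFF than in 2OFF (Insig2) and 1 lower in 7OFF than in 3OFF (Npc1). The cause of these differences was not tested.

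Leaving out each library in turn gave 0 to 1 genes lower and 2 to 4 higher in 3OFF than in 12ON, 0 to 1 lower in 7OFF than in 12ON, 0 to 1 higher in 3OFF and 4 to 11 lower in 7OFF than in group 12. It gave 0 to 2 higher in 3OFF than in 2OFF, and 0 to 1 lower and 1 to 4 higher in 7OFF than in 3OFF. The cause was not tested. Sqle was the only gene called lower than group 12 in 7OFF under each alternative run.

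Same-numbered libraries were not paired in the main fit. The correlation of their deviations from the group means was -0.21 to 0.48 (median 0.075) and above 0.1 in 20 of 45 pairs. For libraries of unlike number it was -0.43 to 0.37 (median -0.029) and above 0.1 in 18 of 90 pairs. Of 18 libraries, 14 had their highest mean correlation with their own number. What the replicate number stands for was not tested. A replicate block gave 21 genes lower than group 12 in 12ON, 21 in 3OFF and 12 in 7OFF, and 11 higher in 7OFF than in 12ON. The number of mice, 3 per group, limits the precision of each value.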
